A study of Mus musculus with 16 samples.

Results

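The comparison set 3 kidneys of Il33-deficient (KO) mice against 4 kidneys of wild type (WT) mice, all from the series' set 2 of mice and all taken 24 h after unilateral ureteral obstruction (UUO). The arrays were chosen by their labels, which name the genotype, the set and UUO, and they are 7 of the 16 arrays of the series. RNA of each kidney was hybridized to an Illumina MouseRef-8 v2 BeadChip, on which the brightness of a probe follows the amount of its transcript. The numbers given by the labels identify the kidneys, 3892, 3893, 3894 and 3895 for WT and 3897, 3898 and 3899 for KO. The KO mice had been obtained from Merck and bred onto the C57BL/6J BomTac background. UUO was made with a metal clip on the left ureter, and mice were 8 weeks old where the methods state nothing else. Neither the labels nor the methods used here say which part of Il33 was deleted. The other 9 arrays are 3 WT and 2 KO kidneys of set 1 after UUO, and 4 untreated control kidneys, 2 WT and 2 KO, for which the labels name no set. No array is shared between the set 2 comparison, the set 1 comparison and the comparison of controls.

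IL-33 is a cytokine of the IL-1 family that is stored in nuclei of endothelial, epithelial and stromal cells and is set free when such cells are damaged. It acts through the receptor ST2, the product of Il1rl1, together with the IL-1 receptor accessory protein. Obstruction raises the pressure in the tubules, and the proximal tubule, which lives on fatty acid oxidation and reabsorbs most of the filtrate, loses its enzymes and transporters while pericytes and fibroblasts begin to form matrix and take up contractile proteins such as smooth muscle actin. The comparison asks which genes differed between the genotypes at this early stage.

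Il33 itself had the largest difference. Its log2 intensity was 9.45, 9.33, 9.44 and 9.47 in WT kidneys 3892 to 3895, and 7.01, 6.88 and 6.88 in KO kidneys 3897 to 3899. The groups were far apart and the kidneys within each differed little. The log2 fold change of KO over WT was -2.50 with an SE of 0.0522, a 5.66-fold lower level (limma adjusted p = 3.46e-08, exact permutation p = 0.0286, the smallest that 3 against 4 kidneys can give). In the KO kidneys the Il33 intensity was 118 to 129, below the medians over all genes of the arrays, the lowest of which was 132, so the fold change is limited by the background of the array. Control KO kidneys lay at the same level, 118 and 115, and WT controls at 199 and 259.7. Of the chain that carries the IL-33 signal, none of 16 measured genes was called. Il1rl1 had a log2 fold change of -0.03 and Il1rap of 0.00, and both were dim in all 7 kidneys, with log2 intensities between 6.89 and 7.01.

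A gene was called at the threshold of the study, which asks for an unadjusted p under 0.05, for an adjusted p (Benjamini-Hochberg) under 0.25 and for more than a 1.3-fold difference, here in limma on log2 of the deposited intensities. Of 18132 genes, 88 were called, which is 0.485% of the genes tested, and 61 of them were lower in KO (0.336%) and 27 higher (0.149%). At an adjusted p under 0.05 there were 4 genes (0.0221%), Il33 and CES3 lower and Acta2 and ABP1 higher. CES3 and ABP1 are given in the deposited spelling, which older annotation shares between several genes. In 57 of the 61 lower genes every KO kidney lay below every WT kidney, and in 26 of the 27 higher genes every KO kidney lay above. Groups did not overlap, with KO below, at 4.28% of all genes, and with KO above at 4.58%, and these counts are no support for the calls, since they come from the same 7 kidneys. The median log2 fold change was -0.53 over the lower genes and 0.48 over the higher genes, against 0.00 over all genes. 9 lower genes, among them Il33, Pdk4, Acaa1b, Dnase1, Ehhadh, CES3, Gldc and Inmt, and 1 higher gene (Gsta1) changed by more than 2-fold. An adjusted p under 0.25 was reached by 345 genes (1.9%), of which 257 missed the fold change, 118 lower and 139 higher.

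The number of calls rested on single kidneys. Without KO 3898, KO 3897, WT 3892 or WT 3894 it was 9, 13, 21 or 37, and without WT 3893 or KO 3899 it was 145 or 212. In the last of these fits 83 of the 88 genes were called again. In one model with all 12 UUO arrays, where the spread of set 1 enters, Il33 alone was called. KO 3899 was the highest KO kidney at 42 of the 61 lower genes and the lowest at 16 of the 27 higher genes, and so the KO kidney closest to WT, while WT 3894 was the highest WT kidney at 37 of the lower genes.

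Genes of fatty acid use were among the largest falls after Il33. Of 46 measured genes of fatty acid oxidation and the peroxisome, 10 were called lower and none higher, 44 had a negative log2 fold change, and the median was -0.22 against 0.00 over all genes. Over all genes 0.336% were called lower, 0.149% were called higher and 48% were negative. All KO kidneys were below all WT kidneys at 18 of the 46, against 4.28% of all genes. Averaged over the list and set against the WT mean, KO 3897, 3898 and 3899 lay at -0.41, -0.31 and -0.20 on the log2 scale and WT kidneys between -0.08 and 0.15. The averages did not overlap, and KO 3899 was again the nearest to WT. No member was called without KO 3897 or without KO 3898, 1 without WT 3892, 4 without WT 3894 and 13 without WT 3893 or without KO 3899, with medians between -0.30 and -0.17.

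Pdk4, a kinase that shuts pyruvate dehydrogenase and so spares glucose for fatty acids, was 10.64, 9.88, 11.80 and 10.56 in WT and 9.16, 8.999 and 9.59 in KO (log2 fold change -1.47, SE 0.363, limma adjusted p = 0.203). Every KO kidney lay below every WT kidney, of which WT 3893 was the lowest and WT 3894 the highest. Pdk4 was 1 of only 2 lower genes, with Ednrb, that had the opposite sign in set 1, where its log2 fold change was 0.47.

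Enzymes of the peroxisome were lower as well. Acaa1b, a peroxisomal thiolase, was 12.30, 12.23, 13.17 and 12.39 in WT and 11.18, 11.57 and 11.61 in KO (log2 fold change -1.07, SE 0.210). Ehhadh, the bifunctional enzyme of peroxisomal oxidation, was 10.17, 9.74, 10.62 and 10.31 in WT and 8.85, 9.18 and 9.47 in KO (log2 fold change -1.04, SE 0.196). Both had a limma adjusted p of 0.143 and no overlap between genotypes. The enoyl-CoA isomerases Eci3 (-0.66) and Eci1 (-0.49), the lipoprotein lipase gene Lpl (-0.62), the carnitine palmitoyltransferase gene Cpt2 (-0.58), the dienoyl-CoA reductase gene Decr1 (-0.48), the peroxisomal membrane protein gene Pxmp4 (-0.48) and the mitochondrial thiolase gene Acaa2 (-0.46) were called lower too. Fgf21, a hormone that the fasted liver releases and that fatty acids induce, fell by 0.83. Acot1 (-0.60) and Acsm3 (-0.57) had values as large but overlapping groups and were not called. The nuclear receptor gene Ppara, whose product is a known activator of many of these genes, was dim, at 6.89 to 7.07, and had a log2 fold change of -0.09 (limma adjusted p = 0.611).

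**Figure D1:**
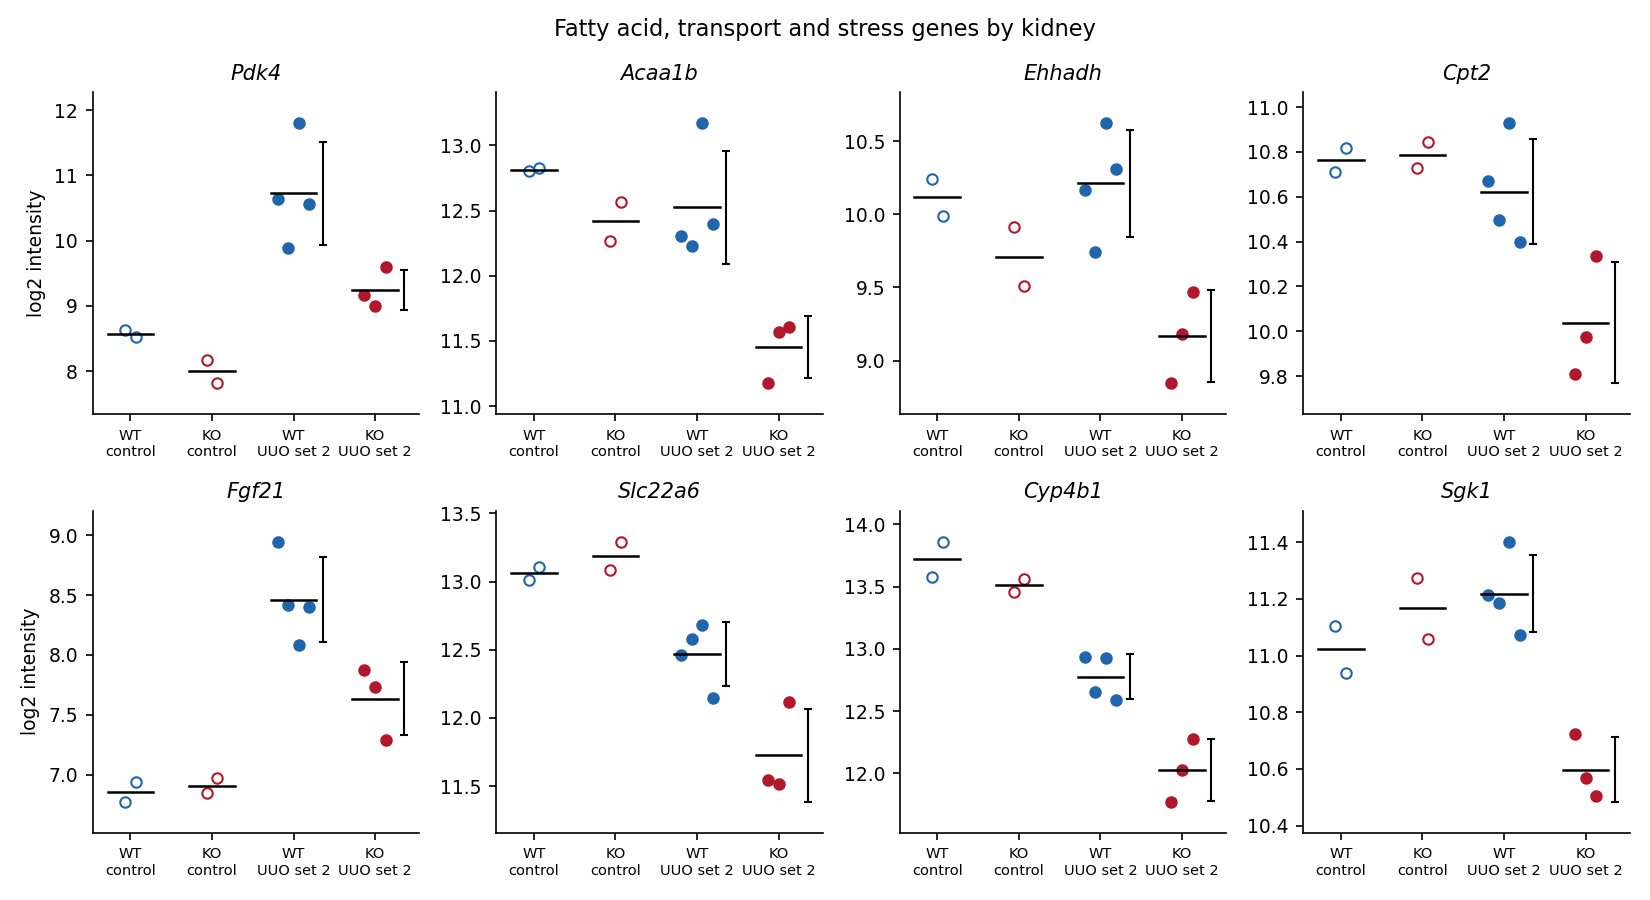
log2 intensity (y axis of each panel) of 8 genes by group (x axis), with 1 point per kidney, a line at the group mean and bars of 1 SD beside the set 2 groups; open points are untreated controls, blue is WT and red is KO. At all 8 genes the 3 KO kidneys of set 2 lie below the 4 WT kidneys, and WT 3894 (11.80) stands above the other WT kidneys at Pdk4.

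All 17 measured genes that respond to glucocorticoids, fasting or stress had a negative log2 fold change, with a median of -0.25, and 3 were called, Pdk4, Sgk1 and Klf9. Over all genes 48% were negative and 0.336% were called lower. Sgk1, a kinase that keeps sodium channels in the membrane, was 11.22, 11.19, 11.40 and 11.07 in WT and 10.72, 10.57 and 10.50 in KO (log2 fold change -0.62, SE 0.0800, limma adjusted p = 0.0594). Its groups were well apart in set 2, and its log2 fold change was -0.68 in set 1 and 0.15 in controls. Klf9, a transcription factor that glucocorticoids induce, fell by 0.40. Angptl4, an inhibitor of lipoprotein lipase, and Fkbp5, a chaperone of the glucocorticoid receptor, had log2 fold changes of -0.67 and -0.61 with overlapping groups and were not called. Averaged over the list the KO kidneys lay between -0.50 and -0.33 and the WT kidneys between -0.20 and 0.27, WT 3894 being the highest. The calls in this list numbered 0 without KO 3898, 1 without WT 3892 or KO 3897 and 5 without WT 3893. Over the same genes the median in set 1 was -0.05 and 10 of 17 were negative. In untreated controls the median was -0.13 and 12 of 17 were negative, against 48.2% of all genes in set 1 and in controls. The hour of harvest, food intake and hormone levels are not given in the sources used here, so their part in these values was not tested.

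Enzymes and transporters of the tubule were lower along with them. In 6 lists of tubule metabolism and transport with 196 measured genes between them, which include the fatty acid list, 24 genes were called lower and 1 higher, and 164 of the 196 had a negative log2 fold change. Over all genes 0.336% were called lower, 0.149% were called higher and 48.0% were negative. Among 45 genes of cytochromes P450 and other xenobiotic enzymes 6 were lower and 1, Gsta2, was higher, with a median of -0.19. Gsta1, which was higher by 1.12, was on none of the 6 lists. CES3, a carboxylesterase by its symbol, was 10.76, 10.93, 10.80 and 10.82 in WT and 9.61, 9.66 and 10.13 in KO. That is a log2 fold change of -1.03 with an SE of 0.112 (limma adjusted p = 0.0340), and it was larger in set 1, -2.47. Inmt, a methyltransferase of indole amines, fell by 1.01, and the cytochromes P450 Cyp4b1, Cyp2d9 and Cyp2e1 fell by 0.75, 0.71 and 0.63. The lower calls of this list numbered 1 without WT 3892 or KO 3897, 2 without KO 3898, 3 without WT 3894 and 14 without KO 3899.

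Slc22a6 encodes the organic anion transporter OAT1, by which the proximal tubule takes up drugs and urate from the blood. It was 12.46, 12.58, 12.69 and 12.14 in WT and 11.55, 11.51 and 12.12 in KO (log2 fold change -0.74, SE 0.161, limma adjusted p = 0.170). KO 3899 lay only just below the lowest WT kidney. Slc22a12, the urate exchanger, fell by 0.45, and of 20 organic ion transporters these 2 were called, against 0.336% of all genes called lower, while 8 lay below WT in every KO kidney, against 4.28% of all genes. None of the 20 was called without WT 3892, WT 3894, KO 3897 or KO 3898. The calls numbered 1 without WT 3895, 2 without WT 3893 and 4 without KO 3899. Of 33 proximal tubule transporters and brush border genes 3 were called lower, the dicarboxylate transporter gene Slc13a3 (-0.74), Slc16a4 (-0.58) and Mpv17l (-0.38), and the median was -0.17. Of these 33 genes, 10 were called without KO 3899 and none without KO 3897, KO 3898, WT 3892 or WT 3894. Slc34a1, the phosphate transporter of the proximal tubule, lay between 12.72 and 13.90 with overlapping groups (log2 fold change -0.54, limma adjusted p = 0.365).

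Fbp1, which makes glucose from fructose bisphosphate, fell by 0.53, although KO 3899 (11.58) was above WT 3895 (11.54), and the median over 13 genes of gluconeogenesis and fructose metabolism was -0.31. Among 39 genes of amino acid and one-carbon metabolism Gldc, the glycine decarboxylase, and Upb1, an enzyme of pyrimidine breakdown (-0.43), were called, against 0.336% of all genes called lower. Genes of plasma proteins moved both ways. Ttr, the carrier of thyroxine and of the retinol binding protein, was 10.50, 10.37, 10.09 and 10.19 in WT and 9.21, 9.64 and 9.24 in KO (log2 fold change -0.93, SE 0.123, limma adjusted p = 0.0594). Spp2 (-0.80) and Azgp1 (-0.63) were lower as well, and Serpina10, an inhibitor of clotting factors, was higher by 0.43. Dnase1, which encodes a secreted nuclease, was 11.47, 11.53, 11.85 and 11.24 in WT and 10.13, 10.09 and 11.17 in KO (log2 fold change -1.06, SE 0.245). KO 3899 again lay close to WT. None of 20 markers of the thick limb and distal tubule was called (median 0.06), nor any of 32 genes of the respiratory chain and ATP synthase (median -0.04) or of 7 podocyte markers (0.03).

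The higher genes included contractile, matrix and macrophage genes. Acta2, which encodes smooth muscle actin, the classical mark of myofibroblasts, was 10.43, 10.51, 10.37 and 10.55 in WT and 11.21, 11.19 and 11.30 in KO. The genotypes lay well apart, with little spread within each. Its log2 fold change was 0.77 with an SE of 0.0534, a 1.70-fold higher level (limma adjusted p = 0.00105, exact permutation p = 0.0286), and it was called under 13 of 14 alternative settings, the exception being the model of 12 UUO arrays (limma adjusted p = 0.700). The log2 fold change was 0.51 in set 1 and -0.36 in controls. The genotype effect after UUO in set 2 exceeded that in controls by 1.13 with an SE of 0.154 (limma adjusted p = 0.0569).

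Tagln, which encodes the actin binding protein transgelin, was 7.57, 7.61, 7.50 and 7.75 in WT and 7.97, 8.22 and 8.09 in KO (log2 fold change 0.48, SE 0.0737, limma adjusted p = 0.114). These were the 2 calls among 18 measured genes of myofibroblasts and smooth muscle, of which 17 had a positive log2 fold change and 8 lay above WT in every KO kidney, against 4.58% of all genes. Over all genes 0.149% were called higher and 9430 of 18132 had a positive log2 fold change. The median of the list was 0.17. Averaged over the list, KO kidneys lay at 0.21, 0.18 and 0.18 above the WT mean and WT kidneys between -0.04 and 0.06. Cnn2 (0.33), Tpm1 (0.29) and Tpm2 (0.22) did not overlap between genotypes but were not called, and Cnn1 (-0.06) and Actg2 (0.04) were within the spread of the kidneys. The 2 calls held without any 1 WT kidney, without KO 3897 and without KO 3899, and without KO 3898 Tagln was no longer called.

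Of 20 collagens, Col1a1 alone was called, against 0.149% of all genes called higher. Its values were 8.86, 8.67, 8.51 and 8.62 in WT and 9.49, 9.15 and 9.08 in KO, without overlap (log2 fold change 0.58, SE 0.105, limma adjusted p = 0.143). Col3a1, whose product joins collagen I in fibrils, was 7.98, 7.90, 8.03 and 7.93 in WT and 8.36, 8.32 and 8.30 in KO. Its log2 fold change of 0.37 had an SE of 0.0448 and a limma adjusted p of 0.0564, and it was left out of the calls by the fold change alone, at 1.29-fold. Col1a2, the other chain of collagen I, was 7.62, 7.82, 7.74 and 7.59 in WT and 8.03, 8.07 and 7.79 in KO, and KO 3899 fell inside the WT range (log2 fold change 0.27, limma adjusted p = 0.298). Over 20 collagens the median was 0.07, and Col1a1 was not called without KO 3897 or without KO 3898. No call was made among 32 matrix glycoproteins and proteoglycans (median 0.05) or 22 matrix proteases and their inhibitors (0.00). Nor was any made among 24 ligands, receptors and targets of TGF-beta (-0.03). Of the 32, 6 lay above WT in every KO kidney, among them Bgn (0.38), Fbn1 (0.34) and Sparc (0.29), and 1 lay below. Over all genes these shares were 4.58% and 4.28%. Gucy1a1, a subunit of the nitric oxide receptor found in pericytes, was higher by 0.44. It was the only call among 17 markers of fibroblasts and pericytes, against 0.149% of all genes called higher.

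**Figure D2:**
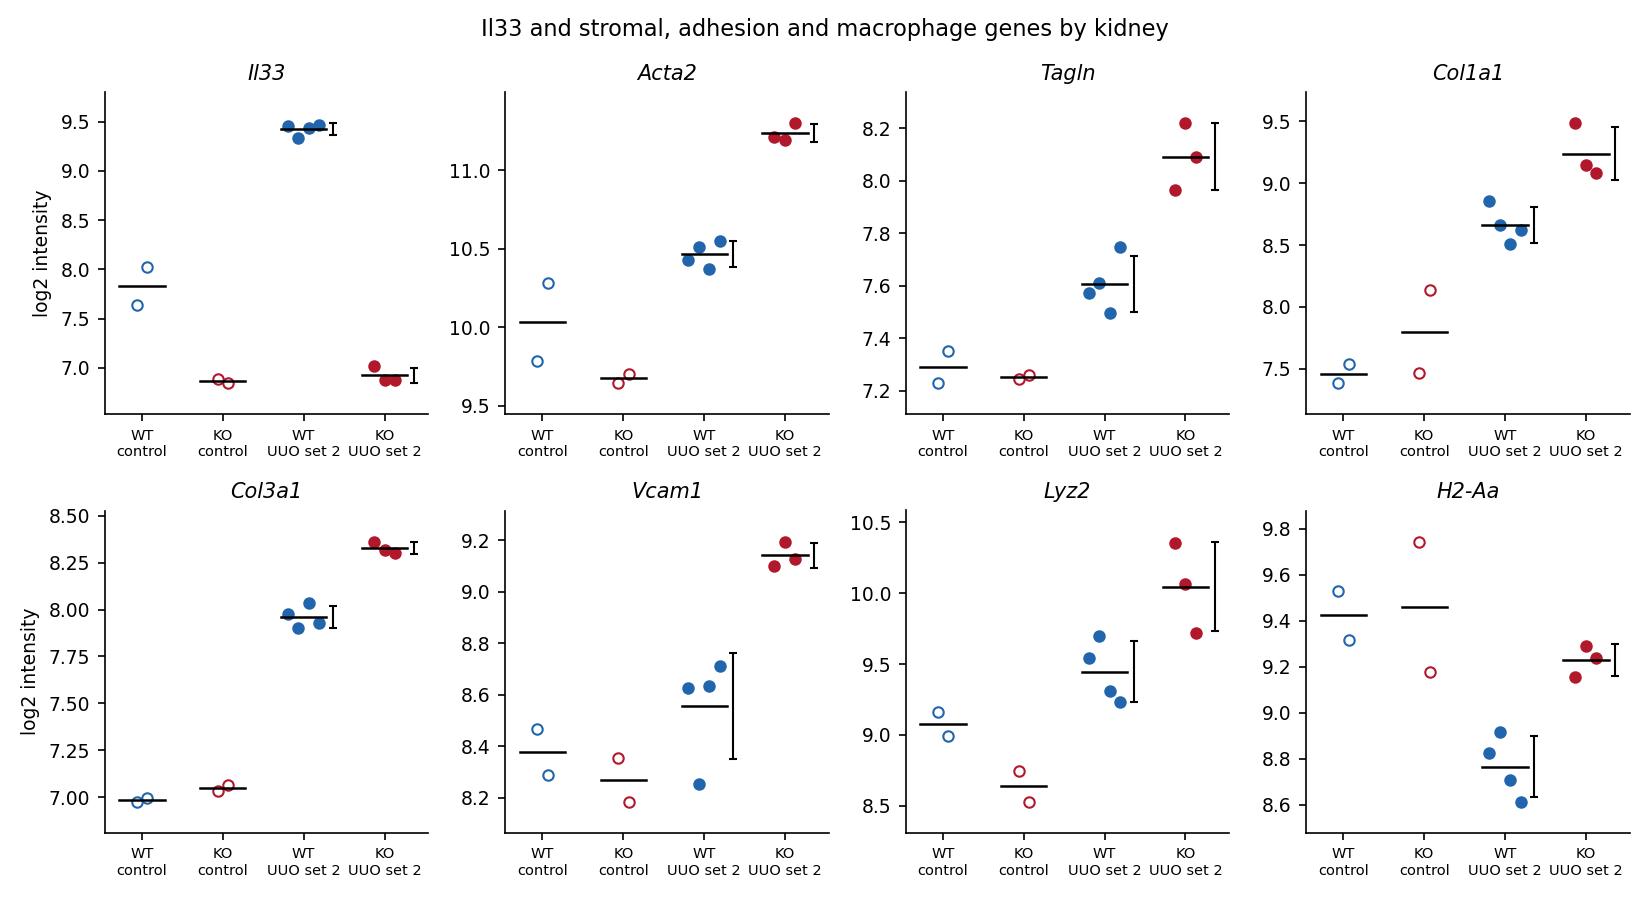
log2 intensity (y axis of each panel) of Il33 and 7 genes of stroma, adhesion and macrophages by group (x axis), with 1 point per kidney, a line at the group mean and bars of 1 SD beside the set 2 groups; open points are untreated controls, blue is WT and red is KO. Il33 lies near 7 on the log2 scale in every KO kidney, and at the other 7 genes the 3 KO kidneys of set 2 lie above the 4 WT kidneys.

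Among 21 markers of macrophages and dendritic cells 17 had a positive log2 fold change (9430 of all 18132 genes did), the median was 0.19 and 8 lay above WT in every KO kidney, against 4.58% of all genes. The 2 called higher, against 0.149% of all genes, were Lyz2, the lysozyme of myeloid cells, and H2-Aa, a chain of MHC class II. Lyz2 was 9.54, 9.70, 9.31 and 9.23 in WT and 10.35, 10.07 and 9.72 in KO (log2 fold change 0.60, SE 0.150, limma adjusted p = 0.209), with KO 3899 just above the highest WT kidney. H2-Aa was higher by 0.46 and H2-DMa, which loads peptides onto MHC class II, by 0.47, and the class II genes Cd74 (0.34), H2-Ab1 (0.34) and H2-Eb1 (0.37) did not overlap but were not called. C1qb, a complement gene of macrophages, was higher by 0.43. The pan-macrophage markers Adgre1 (0.06) and Csf1r (0.06) overlapped, and Cd14 had a log2 fold change of -0.35. With WT 3893 or KO 3899 left out 6 macrophage markers were called higher, with KO 3898 left out none was, and with any 1 of the other 4 kidneys left out 1 was. Vcam1, an adhesion molecule of endothelium and injured tubules, was 8.63, 8.25, 8.64 and 8.71 in WT and 9.10, 9.19 and 9.13 in KO (log2 fold change 0.58, SE 0.0977, limma adjusted p = 0.128). It was the only call on the list of 31 chemokine and inflammatory genes, so no chemokine or cytokine of that list was called. None of 12 neutrophil, 18 lymphocyte or 16 endothelial markers and none of 24 interferon response genes was called. In RNA of whole kidney, fewer cells of a type and less RNA per cell cannot be told apart, and this touches every list named here.

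Markers of tubular injury showed no common direction, with 2 higher (Vcam1 and Anxa3), 1 lower (Sprr1a) and a median of 0.00 over 33 genes. Over all genes 0.149% were called higher and 0.336% lower. None of the 33 was called without KO 3897 or KO 3898, and 4 were called higher and 1 lower without KO 3899. Havcr1, the gene of kidney injury molecule 1, was bright in all 7 kidneys, at 13.12 to 13.74 (log2 fold change 0.21, limma adjusted p = 0.624), and so was Lcn2, at 12.98 to 13.60 (-0.09, limma adjusted p = 0.903). None of 35 genes of cytosolic ribosomal proteins was called, but 32 of them had a positive log2 fold change (9430 of all 18132 genes did), with a median of 0.12. Gsta1, a glutathione transferase of detoxification, was 7.93, 8.08, 7.96 and 8.12 in WT and 9.76, 9.35 and 8.33 in KO (log2 fold change 1.12, SE 0.267, limma adjusted p = 0.193). The KO kidneys were all above WT and far from each other. Gsta2, a close copy, was higher by 0.54, and a probe for either may bind both transcripts. ABP1 was 10.43, 10.31, 10.16 and 10.35 in WT and 10.995, 10.82 and 10.92 in KO (log2 fold change 0.60, SE 0.0681, limma adjusted p = 0.0363), and its log2 fold change in set 1 was 2.15.

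Dbp, a clock-driven transcription factor with a strong daily rhythm, was 9.96, 10.59, 10.28 and 9.73 in WT and 10.82, 10.86 and 11.20 in KO (log2 fold change 0.82, SE 0.182, limma adjusted p = 0.170). It was the only call among 17 clock genes, against 0.149% of all genes called higher. Per1 (-0.33), Arntl (-0.22) and Per3 (-0.11) lay below WT in every KO kidney, against 4.28% of all genes. Dbp and Cry2 (0.27) lay above WT in every KO kidney, against 4.58% of all genes. No clock gene was called without WT 3892, WT 3894, KO 3897 or KO 3898. In controls Dbp had the opposite sign, -1.02, and in set 1 too, -0.38. Markers of blood, fat, adrenal gland and skeletal muscle gave no call. Hba-a1, a globin gene, was 13.56 in KO 3897 and 11.68 to 12.81 in the other 6 kidneys. Markers of fat, adrenal gland and skeletal muscle averaged between 6.84 and 6.95, close to Il33 in the KO kidneys. The 7 sex-linked genes differed by -0.12 to 0.11. Of 12 kidney genes that depend on androgen or sex, 9 had a negative log2 fold change, against 48% of all genes, and the median was -0.35. The 2 called lower were Cyp4b1 and Cyp2e1, and 4 of the 12 lay below WT in every KO kidney, against 0.336% and 4.28% of all genes. Averaged over these genes and set against the WT mean, KO 3897, 3898 and 3899 lay at -0.47, -0.29 and -0.13 and the WT kidneys between -0.02 and 0.02. None of the 12 was called without WT 3892, KO 3897 or KO 3898, 5 were without KO 3899, and the median stayed between -0.39 and -0.28 whichever kidney was left out. The sex of the mice is not given in the sources used here, and the part of sex or androgen in these values was not tested.

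**Figure D3:**
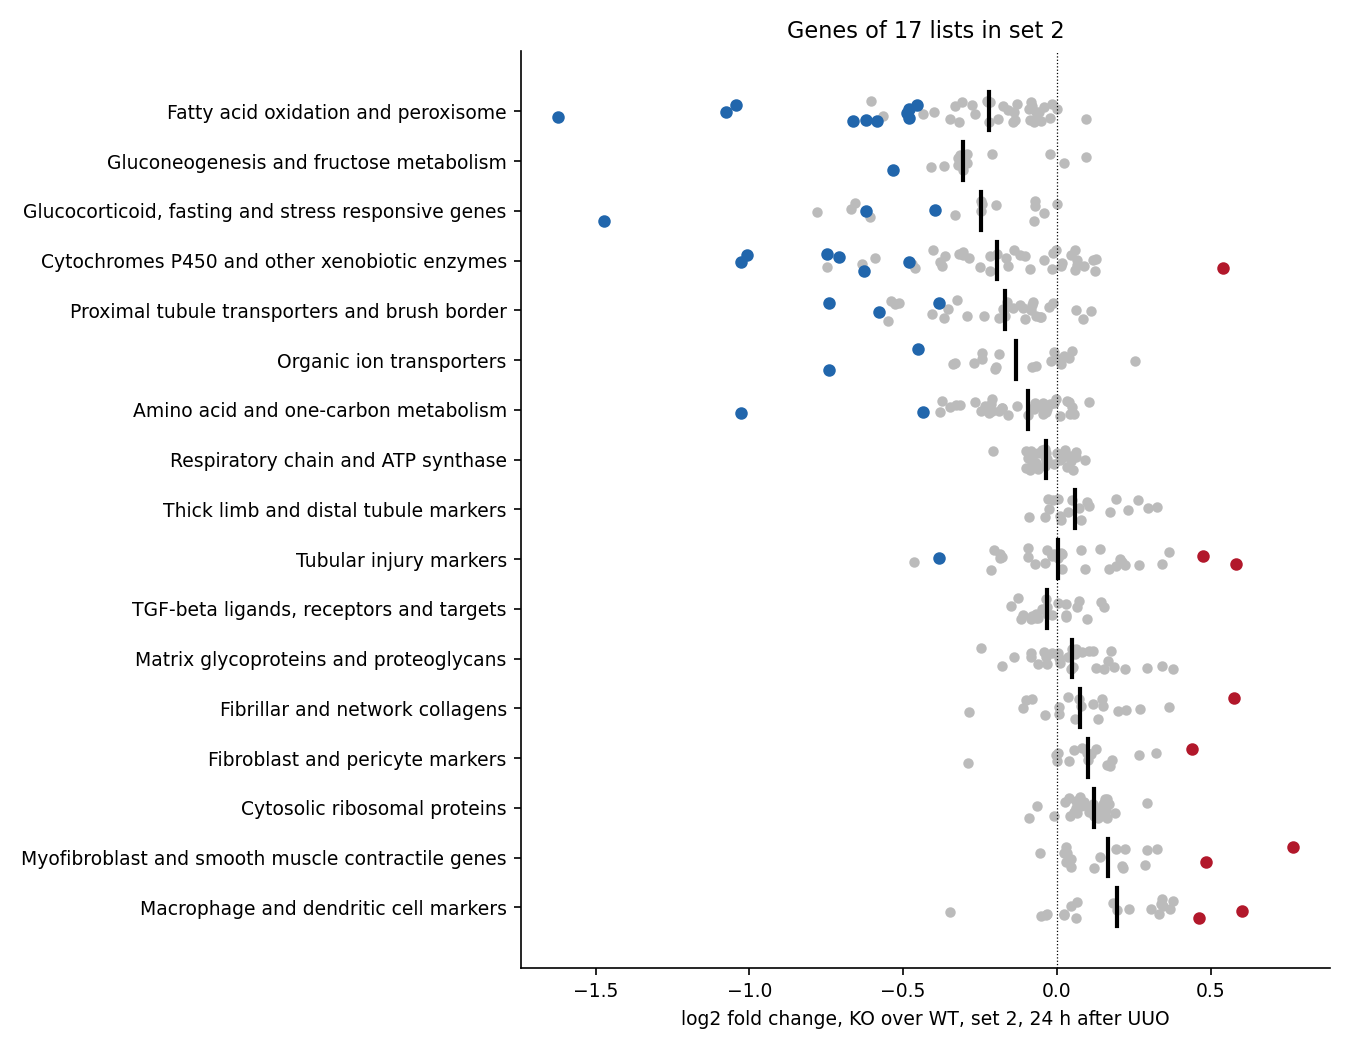
log2 fold change of KO over WT in set 2 (x axis) for the measured genes of 17 lists (y axis), 1 point per gene, with called genes in blue (lower) and red (higher), other genes in grey and a black bar at each list's median. The list medians run from -0.31 for gluconeogenesis to 0.19 for macrophage markers, and blue points lie mainly in the lists of tubule metabolism.

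Genes near Il33 were read by their order on the chromosome. Of the 20 measured genes on each side of Il33 on chromosome 19, ordered as in the RefSeq annotation of GRCm38.p6, 2 were called, Gldc and Acta2. That is 2 of 40, against 0.485% of all genes. Gldc is the 3rd gene after Il33. It was 10.51, 9.75, 10.98 and 10.45 in WT and 9.43, 9.38 and 9.38 in KO (log2 fold change -1.03, SE 0.224, limma adjusted p = 0.170), with a log2 fold change of -1.40 in set 1 and 0.00 in controls. Acta2 is the 20th measured gene on that side, and its difference in controls was -0.36. Trpd52l3, the next gene to Il33, lay above WT (0.24) and Papss2 below WT (-0.26) in every KO kidney, and neither reached the fold change. The other 36 neighbours overlapped between genotypes, with log2 fold changes between -0.29 and 0.13. Groups thus did not overlap at 4 of the 40, against 8.86% of all genes. DNA of another strain kept around a targeted gene was not typed here.

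Promoters were read for the called genes that have one in the RefSeq table of GRCm38.p6, 47 of the 61 lower and 15 of the 27 higher genes, from 250 bases before the start to 50 after it, on both strands. They are shown for the contractile gene Acta2 and for the transporter gene Slc22a6, 1 of the 3 lower genes that hold GTTAAT, with the matched letters in capitals. Acta2 lies at chr19:34255324-34255623 on the minus strand, and its capitals mark a CArG-like match, CC and GG around 6 letters of which at most 1 is not A or T, the shape bound by serum response factor. Slc22a6 lies at chr19:8617746-8618045 on the plus strand, and its capitals mark GTTAAT, part of the site of HNF1, a transcription factor of the proximal tubule.
Acta2: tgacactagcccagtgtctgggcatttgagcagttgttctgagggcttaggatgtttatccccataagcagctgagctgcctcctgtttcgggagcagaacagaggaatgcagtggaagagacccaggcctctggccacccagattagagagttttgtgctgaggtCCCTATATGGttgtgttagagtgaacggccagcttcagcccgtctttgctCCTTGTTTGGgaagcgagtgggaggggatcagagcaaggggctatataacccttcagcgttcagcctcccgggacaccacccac
Slc22a6: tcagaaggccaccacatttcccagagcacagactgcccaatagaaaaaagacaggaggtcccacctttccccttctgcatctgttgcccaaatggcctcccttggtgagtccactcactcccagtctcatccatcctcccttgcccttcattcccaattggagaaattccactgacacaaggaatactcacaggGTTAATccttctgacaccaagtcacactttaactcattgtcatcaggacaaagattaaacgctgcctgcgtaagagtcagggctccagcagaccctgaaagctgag
The matches in Acta2, CCCTATATGG and CCTTGTTTGG, begin 84 and 34 bases before the start, and 0.805% of 13415 promoters hold at least 2 such matches. This shape was chosen after the data were seen. A CArG-like match stood in 8.51% of the lower and 13.3% of the higher genes against 10.9% of all. The strict form with A or T at all 6 places stood in none of the called genes and in 1.67% of all. GTTAAT stood in 6.38% of the lower genes and 7.28% of all. CAAAGTC, as bound by HNF4A, stood in 4.26% of the lower, 6.67% of the higher and 4.98% of all genes, and TGANTCA, the site of AP-1, in 12.8%, 13.3% and 8.28%. TATAAA stood in 23.4% of the lower, 13.3% of the higher and 14.2% of all genes.

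The same contrast in set 1, which shares no kidney with set 2, called no gene with limma (1091 genes, 6.02%, had an unadjusted p under 0.05, against 1733, 9.56%, in set 2). Without WT 3819 of set 1 it called 1562. Of the genes called lower in set 2, 59 of 61 were negative in set 1 too, where 48.2% of all genes were negative. In 34 of the 61 both KO kidneys of set 1 lay below its 3 WT kidneys, against 11.7% of all genes, and 20 had an unadjusted limma p under 0.05. Of the genes called higher, 20 of 27 were positive in set 1, where 51.8% of all genes were positive, and 10 did not overlap there, against 12.9% of all genes, while 3 had an unadjusted limma p under 0.05 with the same sign. The exceptions with the opposite sign were Dbp, Sostdc1, Aoc3, Car15, Guca2a, Idnk and LOC100043257. The median log2 fold change in set 1 was -0.74 over the lower genes and 0.25 over the higher genes. The test of the difference between the sets passed an adjusted p of 0.05 at no gene by limma (1226 genes, 6.76%, at an unadjusted p under 0.05). Without WT 3819 it passed at 681 genes.

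**Figure D4:**
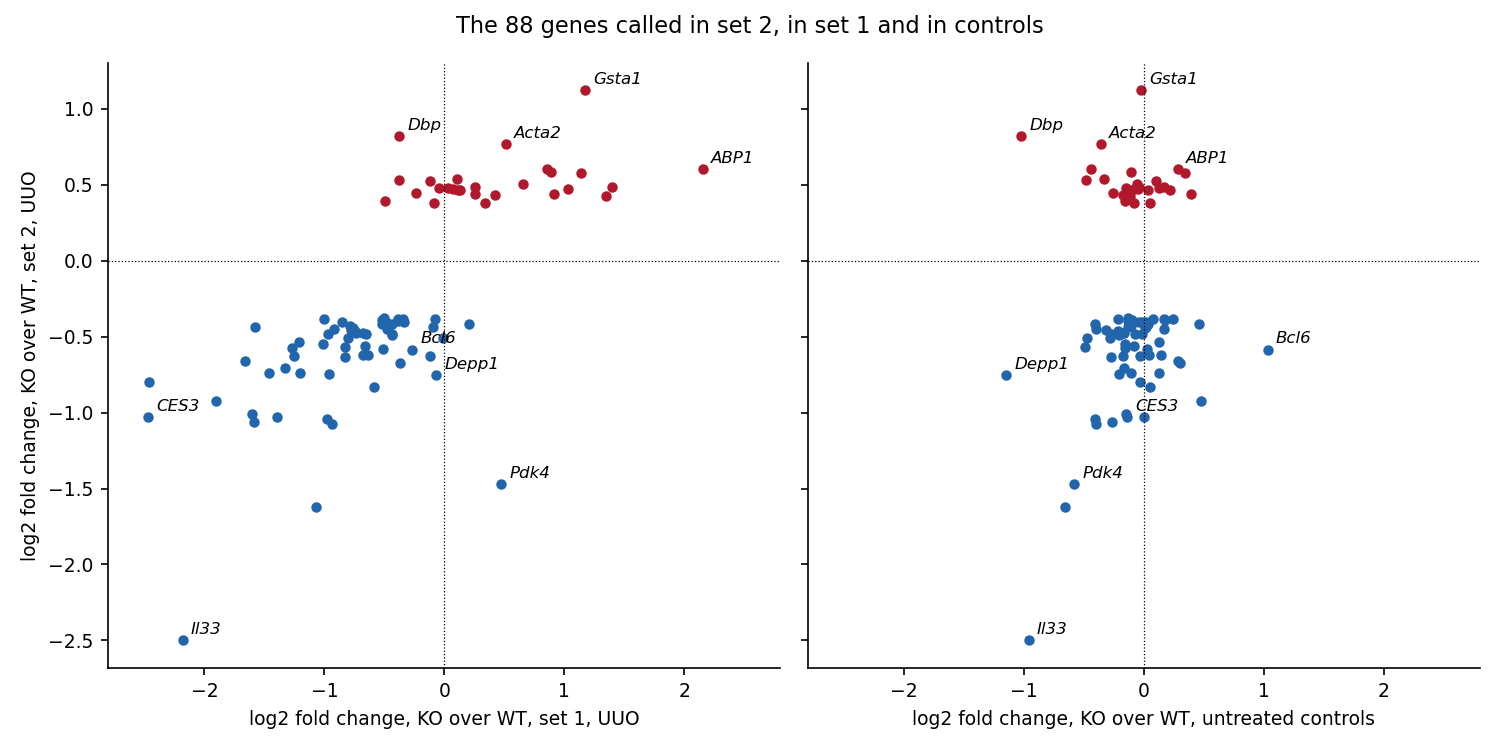
log2 fold change of KO over WT in set 2 (y axis) for the 88 called genes against the same contrast in set 1 (left, x axis) and in untreated controls (right, x axis), blue for lower and red for higher genes, 1 point per gene. In set 1 59 of the 61 blue and 20 of the 27 red points keep their side of 0, and in controls 40 and 9 do. Of all genes 48.2% were negative and 51.8% positive, in set 1 and in controls alike.

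In untreated kidneys the medians of these genes were smaller in size than in set 2, and negative for lower and higher genes alike. The median log2 fold change in controls was -0.11 over the lower and -0.08 over the higher genes, against 0.00 over all genes. The sign of set 2 was kept by 40 of 61 lower and 9 of 27 higher genes. Of all genes 48.2% were negative and 51.8% positive in controls. In all, 6 genes were called (0.0331%), while 952 (5.25%) had an unadjusted p under 0.05. The calls included Angptl4, Csrnp1, Cyp4a12b and Gadd45g, from the 5 lower in KO (0.0276%), and Gpd2, higher in KO (0.00552%). Bcl6, a transcriptional repressor, fell by 0.59 in set 2 and had a log2 fold change of 1.03 in controls, while the fasting gene Depp1 had -0.75 and -1.14. The genotype effect of set 2 after UUO differed from that in controls at 2 genes at an adjusted p under 0.05 (0.011%), Il33 and Gpd2. For Il33 the difference was -1.54 with an SE of 0.129 (limma adjusted p = 0.000816). For Gpd2, a mitochondrial glycerol phosphate dehydrogenase, it was -1.17, with log2 fold changes of 1.17 in controls and -0.01 in set 2. At an unadjusted p under 0.05, 37 of the 61 lower and 22 of the 27 higher genes differed from controls (6.82% of all genes did), which is a description, since these genes were chosen for their set 2 effect and that effect enters the difference.

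Many of the called genes also moved with obstruction. In set 1, where UUO was compared with controls with genotype as a covariate, 1670 genes fell (9.21%) and 1485 rose (8.19%) at an adjusted p under 0.05. Of the 61 genes lower in KO, 26 fell and 1 (Sprr1a) rose after UUO, and of the 27 higher genes 17 rose and 2 (H2-Aa and LOC641240) fell. The median log2 change after UUO was -0.68 over the lower and 0.79 over the higher genes. Each kidney was placed on the axis of these 3155 genes, with 0 at the mean of the controls of its own genotype. A position of 1 is the change after UUO fitted over set 1. WT and KO positions are therefore counted from different controls. The positions were 1.00, 0.925, 1.03 and 1.07 in WT 3892 to 3895 and 1.17, 1.15 and 1.05 in KO 3897 to 3899. KO 3899 lay inside the WT range, so the groups overlapped. KO 3899 was also the KO kidney in which the called genes were least displaced, with 57 of the 61 lower genes below every WT kidney, against all 61 in KO 3897 and KO 3898. In set 1 the WT kidneys lay at 0.734, 1.16 and 0.514 and the KO kidneys at 1.23 and 1.24. The kidney at 1.16, WT 3819, had 55 of the 61 lower genes below every WT kidney of set 2. The axis itself includes the called genes that fell or rose after UUO, so part of any shared movement was built in. Among the WT kidneys of set 2 the lower genes were not ordered by position. Their mean log2 intensity without Il33 was 10.18, 10.10, 10.34 and 10.09 in WT 3892 to 3895. Among the WT kidneys of set 1, which lay further apart, they were ordered by position. There the mean was 10.11, 9.54 and 10.70 at positions 0.734, 1.16 and 0.514. The mean of the higher genes in the same kidneys was 9.40, 9.63 and 8.92. The part of the extent of the response in the genotype difference of the called genes was not tested.

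**Figure D5:**
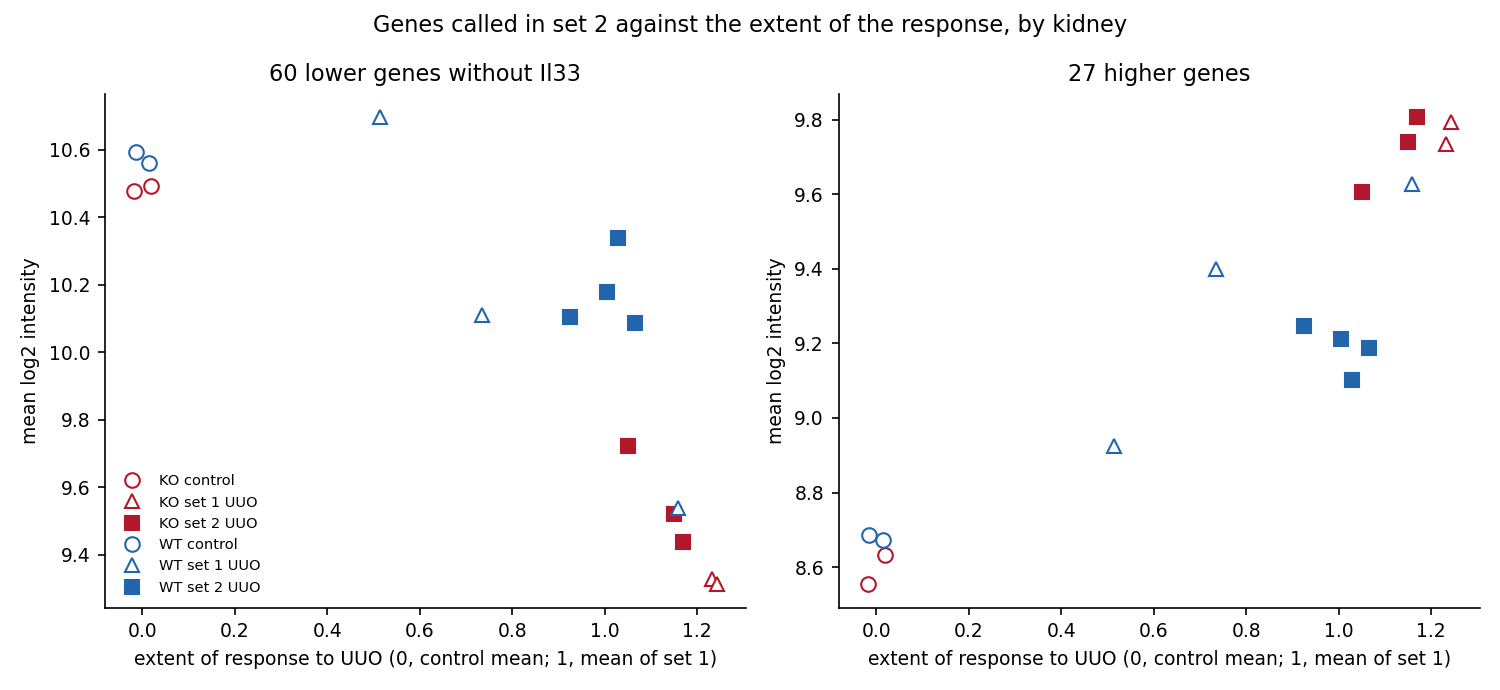
Mean log2 intensity (y axis) of the genes called lower, without Il33 (left), and of the genes called higher (right) in each of the 16 kidneys, against the extent of the kidney's response to UUO (x axis). On the x axis 0 is the mean of the controls of the kidney's own genotype and 1 is the change fitted over set 1. The axis includes called genes that fell or rose after UUO. Blue is WT, red is KO, and filled squares are set 2. KO 3899 (1.05) and WT 3895 (1.07) lie side by side on the x axis and apart on both y axes, and WT 3819 of set 1 (1.16) lies among the KO kidneys.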

How the data were processed

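RNA of 16 mouse kidneys was measured on Illumina MouseRef-8 v2 BeadChips, 1 array per kidney. The authors imported the arrays into R with beadarray, and BeadStudio 2 is named in the submitters' processing notes. The deposited values are linear intensities, 1 per gene, for 18132 genes without missing values. How background was corrected, arrays were normalized and several probes of 1 gene were joined is not given in the sources used here. Array medians lay between 132 and 133, so the values had been made alike between arrays, and the lowest intensity, 95.5, is background, which compresses fold changes of dim genes. Detection p-values were not used here, so no gene was removed.

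Groups came from the labels. In R 4.3.3, limma 3.58.1 (lmFit, then eBayes) was run on log2 of the intensities with no pseudocount, and p-values were adjusted by Benjamini-Hochberg over all genes. The spread in the set 2 test is that of its 7 kidneys. Spearman correlations over genes were 0.924 to 0.940 between WT kidneys, 0.934 to 0.939 between KO kidneys and 0.922 to 0.938 between genotypes, so no pair stood out as a duplicate. The labels do not say that each array is a separate mouse, and p-values measure the spread between these arrays. The number of arrays limits the precision. Exact two-sided permutation tests counted all 35 choices of 3 of 7 kidneys. The models were tested on simulated data. Symbols were updated through RefSeq (14305 matched a symbol, 2659 a synonym and 1168 neither). Descriptions and plots used Python 3.11.15, numpy 2.4.6, pandas 2.3.3 and matplotlib 3.10.9.

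The comparison, the 42 gene lists and the rule for naming genes were chosen with earlier results of these data known. The rule names Il33, Acta2, Col1a1, Col1a2 and Col3a1, the 12 largest falls and 12 largest rises among called genes, up to 4 called members of a list or the 2 largest of a list without a call, the sex-linked genes, the called neighbours of Il33 and defining markers of cell types. Other genes named were chosen after their values were seen, and 1 gene that the rule names is not reported here. Of the 88 called genes, 46 were on a list. Lists got counts and medians and no test. The alternatives subtracted an intensity of 75, quantile-normalized or median-centred the arrays, weighted the arrays, let the prior variance follow intensity, kept the brighter genes, used other fold changes, put the 12 UUO arrays in one model, or left out each kidney in turn.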

Additional observations from a re-analysis of the deposited data

Results flagged for a closer look

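In 93 groups of 4 values, the WT kidneys of set 2 at each named gene and on the axis of the response to UUO, 2 had a kidney far from the others by Dixon's ratio at the 95% level, which chance gives in about 1 of 20 groups. Spp2 was 10.994 on the log2 scale in WT 3893, the highest, and Fbn1 was 8.181 in WT 3894, the lowest. The genotype effect on Il33 differed between UUO in set 2 and untreated controls, by -1.539 on the log2 scale (limma, adjusted p = 0.000816), since Il33 stood higher in WT kidneys after UUO than in WT controls and near the array background in KO kidneys of both.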

How the results depend on the processing

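Quantile normalization gave 81 calls in set 2, all of them among the 88, and median centring 89. The trend of the prior variance gave 114, array weights 101, the brighter genes alone 128 and the subtraction of 75 gave 60 (33 lower and 27 higher), of which 42 were among the 88. The count moved to 1 in one model of the 12 UUO arrays, where the wider spread of set 1 enters, to 197 at a fold change of 1.2 and to 30 at 1.5. Leaving out 1 kidney gave 9 to 212 calls. At an adjusted p under 0.05 the 4 genes became 7 under quantile normalization, 17 with the trend, 7 with array weights, 8 among the brighter genes, 1 in the model of 12 arrays, and 2 to 103 without 1 kidney. Set 1 gave 0 to 1562 calls, the difference between the sets 0 to 681, controls 3 under quantile normalization and 0 to 6 without 1 kidney, the difference from controls 6 among the brighter genes and 2 to 10 without 1 kidney, and UUO against controls in set 1 gave 1683 to 4016. Il33 was called under all 14 alternatives at the study's fold change. Of the named genes, 3 changed sign when 1 kidney was left out, none of them called, with log2 fold changes of -0.0020 to 0.51 for S100a9, -0.0145 to 0.23 for Mcm5 and -0.0163 to 0.20 for Car3. The cause of these movements was not tested. No paired analysis was possible because the groups share no replicate number. Dim genes lie near the array background, where small differences are not detectable.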
